A study of Mus musculus with 3 samples.

Results

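Murine bone marrow-derived macrophages (BMDMs) were examined for 10 antioxidant genes, *Sod2*, *Hmox1*, *Nqo1*, *Gclm*, *Gclc*, *Srxn1*, *Txnrd1*, *Prdx1*, *Slc7a11* and *Nfe2l2*, which were picked by symbol out of the 32285 genes of the single-cell RNA-seq tables. The cells were grown from the marrow of female C3H/HeN mice aged 6 to 8 weeks in L929-conditioned medium. They received PBS (Ctrl) or 1 µg/mL of purified *Borrelia burgdorferi* lipoproteins (*Bb*LP, the Triton X-114 detergent fraction of strain B31) for 1 h (LP1) or 4 h (LP4). The PBS cells were collected at the 4 h point, so LP1 had no control of its own time. Each condition was 1 library of cells from 3 pooled wells. The paper's sequencing methods describe cells of 3 mice treated separately before pooling, while its culture methods describe pooled marrow. With 1 library per condition no replicate spread existed and no test between conditions was possible. Every interval below is a 95% interval that covers counting error only.

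The libraries held 5039 to 6123 barcodes, and 15806 of 16281 in all were kept. A kept cell had over 500 unique molecular identifiers (UMIs), over 500 genes and a mitochondrial share of UMIs under 5%. The median number of UMIs per cell was 5133 in Ctrl, and 9343 in LP1 against 11784 in LP4. More RNA per cell and deeper sequencing of that library cannot be told apart here, and values are therefore given as CPM (UMIs scaled to a library total of 1000000) unless stated. Libraries made from the 3′ end count each molecule once, whatever its length. The libraries shared 4 to 10 barcode sequences per pair. All 14 macrophage markers listed were detected in every library, with a summed level of 17794 to 21117 CPM. Markers of T or NK cells, mast cells or basophils, and erythroid cells summed to at most 0.364 CPM in any library, B cell markers to at most 10.3 CPM, and between 2 and 5 genes of each of the first 3 lists were at 0 UMIs in Ctrl and in LP4. The 14 neutrophil markers summed to 621, 521 and 848 CPM (Ctrl, LP1, LP4). The 8 stromal markers summed to 5.35, 6.31 and 22.1 CPM, and none of them reached 10 CPM. Of these, 7 of the 8 were at least 2-fold higher in LP4 than in Ctrl, against 11.6% of all genes with at least 20 UMIs in the pair. The stromal-like cluster described further on held 0.379%, 0.395% and 0.407% of the cells (Ctrl, LP1, LP4).

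The transcription factor Nrf2, the product of *Nfe2l2*, is held at a low protein level by Keap1 in resting cells. When electrophiles or oxidants modify Keap1, Nrf2 pairs with small Maf proteins on antioxidant response elements and raises the enzymes that make glutathione and reduce thioredoxin, peroxiredoxin, quinones and heme products. Macrophages that sense bacterial lipoproteins through Toll-like receptor 2 also switch on NF-kB targets, and *Sod2*, the mitochondrial enzyme that turns superoxide into hydrogen peroxide, is known as one of these as well as an antioxidant gene.

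Promoter sequence was at hand for 8 of the 10 genes (all but *Hmox1* and *Gclc*), as 10 RefSeq windows on build GRCm38.p6 that run from 250 bases before to 50 bases after a transcription start. They are reference sequence and were not read from these C3H/HeN cells. The windows were searched on both strands for the core of the antioxidant response element (TGACNNNGC), the AP-1 site (TGANTCA), a C/EBP-ATF composite site (TGATGNAA) and a kappa B site (by its consensus name, 10 letters with degenerate positions). The element core can overlap an AP-1 site. Stretches that hold some of the matches referred to below are shown 5′ to 3′ on the strand of the gene, with the matching letters in capitals. The other matches are described without their sequence.
Sod2, kappa B, chr17:13007731-13007790, plus strand: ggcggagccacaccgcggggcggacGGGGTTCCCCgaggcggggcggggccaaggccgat
Slc7a11, C/EBP-ATF in both orientations, chr3:50443628-50443704, minus strand: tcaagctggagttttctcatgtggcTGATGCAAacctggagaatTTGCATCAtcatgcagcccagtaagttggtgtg
Srxn1, AP-1, chr2:152105454-152105510, plus strand: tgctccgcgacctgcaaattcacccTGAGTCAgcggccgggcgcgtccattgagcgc
Prdx1, element core overlapping AP-1, chr4:116685441-116685499, plus strand: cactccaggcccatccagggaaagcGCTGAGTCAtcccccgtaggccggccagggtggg
Gclm, element core, chr3:122245398-122245456, plus strand: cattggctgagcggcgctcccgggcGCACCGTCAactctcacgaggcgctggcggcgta
Txnrd1, element core at an internal start, chr10:82859089-82859147, plus strand: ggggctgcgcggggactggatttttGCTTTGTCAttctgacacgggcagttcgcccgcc
Nfe2l2, element core, chr2:75704870-75704913, minus strand: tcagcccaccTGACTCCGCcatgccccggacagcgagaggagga

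The element core was found in 5 of the 8 genes, namely *Nfe2l2* (240 bases before the start), *Gclm* (134), *Prdx1* (133), *Txnrd1* (92, at 1 of its 3 starts) and *Srxn1*, where it lay past the start. The same letters occur in 12.4% of 32851 mouse promoter windows of this length. This share and those below are per window and not per gene, and the 8 genes had 10 windows. AP-1 letters were present in *Srxn1* (102 and 45 bases before the start) and *Prdx1* (237 and 131 bases before the start), against 7.81% of all windows. The C/EBP-ATF letters stood only in *Slc7a11* among these genes, at 66 and 47 bases before the start in opposite orientation, against 3.97% of all windows. The kappa B letters stood in *Sod2*, 83 bases before the RefSeq start, and in *Prdx1* at 170 bases, against 4.51% of all windows. The GENCODE span of *Sod2* starts further upstream, so its match lies inside that span. A match of letters is a description of the window and no evidence of binding.

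After 1 h of *Bb*LP, *Sod2* was the only 1 of the 10 genes that was at least 2-fold higher than in Ctrl, and none was 2-fold lower. Of 7747 genes with at least 10 CPM in either library, 0.697% were at least 2-fold higher and 0.465% at least 2-fold lower. After 4 h, *Sod2*, *Slc7a11* and *Srxn1* were at least 2-fold higher and *Nfe2l2* was more than 2-fold lower than in Ctrl, against 10.6% of 8019 genes higher and 9.91% lower. Between 1 h and 4 h, *Sod2* and *Slc7a11* were at least 2-fold higher and *Nfe2l2* 2-fold lower, against 8.75% and 7.55% of 7956 genes. All 10 genes passed the filter of 10 CPM in each comparison, *Nqo1* against Ctrl only through its level in the treated library. The median log2 ratio of the 10 was 0.32 in LP1 over Ctrl and 0.75 in LP4 over Ctrl, where the medians of all genes tested were -0.02 and -0.07. The 10 genes were chosen with earlier results of these data known. The paper had listed *Sod2*, *Slc7a11*, *Srxn1*, *Txnrd1* and *Prdx1* as higher and *Nfe2l2* as lower at 4 h. Their counts and medians beside all genes are therefore a description and not a test. These comparisons share the Ctrl library or the LP1 library and are not independent of each other.

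**Figure D1:**
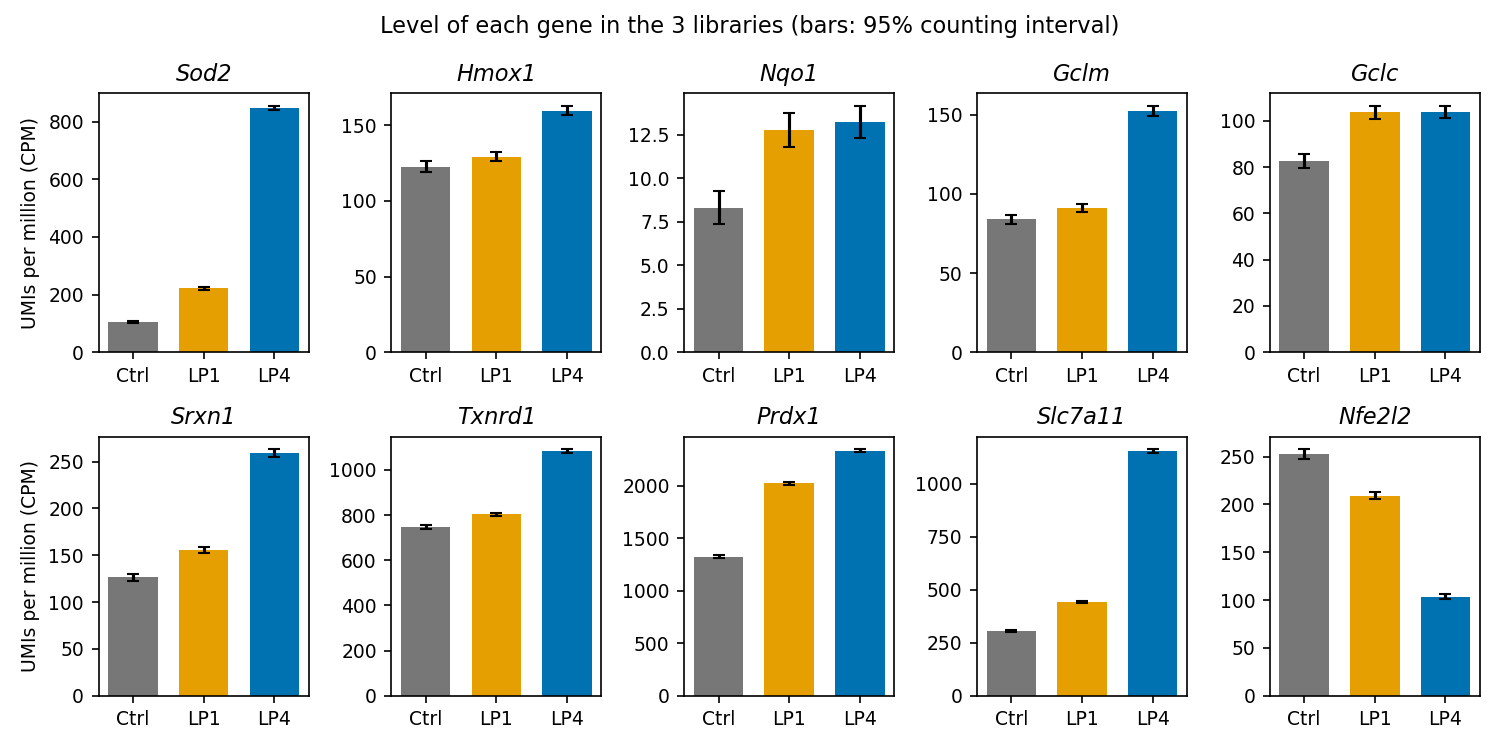
CPM (vertical axes from 0, a different scale in each panel) of the 10 genes in the Ctrl, LP1 and LP4 libraries, with 95% counting intervals. *Sod2* and *Slc7a11* stand highest in LP4 at 847 and 1153 CPM, and *Nfe2l2* is lowest there at 104 CPM.

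*Sod2* measured 104 CPM in Ctrl (interval 101 to 107), 221 in LP1 (217 to 225) and 847 in LP4 (840 to 855). The libraries were ordered Ctrl, LP1, LP4 with no overlap of the counting intervals. The log2 ratio was 1.09 (1.03 to 1.14) at 1 h and 3.03 (2.98 to 3.07) at 4 h, an 8.14-fold difference. By size *Sod2* ranked 40th of 7747 genes at 1 h and 100th of 8019 at 4 h. In cells thinned to 2000 UMIs each, a *Sod2* UMI was found in 19.1% of Ctrl cells, which compares with 34.7% in LP1 and 78.9% in LP4. At 4000 UMIs per cell, 67.7% of Ctrl cells and 6.28% of LP4 cells held no *Sod2* UMI. The gene whose pair of ratios lay nearest to that of *Sod2* was *H2-T22*, a nonclassical MHC class I gene, at 0.95 and 2.88, followed by *Ccl3*, *Ccr1*, *Ccdc71l* and *Socs3*, out of 3624 named genes with at least 50 CPM.

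The gene for cystine uptake differed more than those for glutathione synthesis. *Slc7a11*, the cystine-glutamate exchanger subunit that supplies cysteine for glutathione, measured 304 CPM in Ctrl (298 to 310), 443 in LP1 (437 to 449) and 1153 in LP4 (1144 to 1161). The libraries again ran from Ctrl to LP4 without overlap, with log2 ratios of 0.54 (0.51 to 0.57) at 1 h and 1.92 (1.89 to 1.95) at 4 h. A UMI was found in 34.6%, 44.9% and 74.5% of cells thinned to 2000 UMIs. The gene nearest to it in both ratios was *Myd88*, the adaptor of Toll-like receptors (0.51 and 1.92), followed by *Gatm*, *Stk38l*, *Dr1* and *Sav1*. *Slc3a2*, the partner chain of the exchanger, was at 190, 184 and 188 CPM (Ctrl, LP1, LP4), with a log2 ratio of -0.02 (-0.06 to 0.02) at 4 h.

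Both subunits of glutamate-cysteine ligase, the rate-limiting enzyme of glutathione synthesis, stayed under 2-fold. *Gclm*, the modifier subunit, was at 83.8 CPM in Ctrl (80.8 to 86.9), 91.0 in LP1 (88.5 to 93.6) and 152 in LP4 (149 to 156). Its log2 ratio of 0.12 (0.05 to 0.19) at 1 h became 0.86 (0.80 to 0.92) at 4 h, just short of the 2-fold limit. *Gclc*, the catalytic subunit, was at 82.4 CPM in Ctrl (79.5 to 85.4), 104 in LP1 (101 to 106) and 104 in LP4 (101 to 106). It was already higher at 1 h, by 0.33 (0.27 to 0.40), and LP4 over LP1 was 0.00 (-0.05 to 0.06), but this last ratio differed in sign between clusters of cells. In 1 of the clusters described further on, cluster A, *Gclc* was higher in LP4 than in LP1 (0.96, 0.82 to 1.09), and it was lower in clusters B (-0.10, -0.19 to -0.01), C (-0.30, -0.44 to -0.17) and D (-0.37, -0.50 to -0.24). Finer clustering gave a cluster that shared *Egr3* with A among its leading genes, with 1183 LP1 and 105 LP4 cells. Another shared *F13a1* with A and had 88 and 1233. How the cells of A fell into these was not counted. In these finer clusters the ratio was 1.03 (0.69 to 1.36) and 0.15 (-0.20 to 0.51), so the value in A may compare different cells. *Gclm* overlaps an antisense gene, *Gm17494*, that held only 92 to 177 UMIs per library.

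In the thioredoxin and peroxiredoxin system, *Srxn1*, sulfiredoxin, which repairs overoxidized peroxiredoxin, had the largest ratio of the 3 genes at 4 h. It was at 126 CPM in Ctrl (123 to 130), 156 in LP1 (153 to 159) and 259 in LP4 (255 to 263). Its log2 ratio at 4 h was 1.04 (0.99 to 1.08), just inside the 2-fold limit, with a counting interval that includes it. *Txnrd1*, the cytosolic thioredoxin reductase, was at 747, 803 and 1083 CPM, with log2 ratios of 0.10 (0.08 to 0.13) and 0.54 (0.52 to 0.56). *Txnrd1* shares its strand and part of its span with *Eid3*, which held 578 to 2119 UMIs per library against at least 26654 for *Txnrd1*, so the division of a small share of reads between them is uncertain. *Prdx1*, a cytosolic peroxidase, was at 1324 CPM in Ctrl (1312 to 1336), 2021 in LP1 (2009 to 2033) and 2334 in LP4 (2322 to 2346). Over the whole libraries most of its difference was present at 1 h (0.61, 0.60 to 0.63), and LP4 over LP1 was 0.21 (0.20 to 0.22). Clusters B, C and D had this order. In clusters A and E the ratio at 1 h (0.54 and 0.40) was smaller than LP4 over LP1 (0.82 and 0.51). In cluster F *Prdx1* was lower at 1 h (-0.41, -0.56 to -0.25), and LP4 over LP1 was 1.13. As for *Gclc*, the value in A may compare different cells.

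*Hmox1* and *Nqo1*, which are widely read as Nrf2 targets, differed little or had low counts. *Hmox1*, heme oxygenase, was at 123 CPM in Ctrl (119 to 126), 129 in LP1 (126 to 132) and 160 in LP4 (156 to 163), with log2 ratios of 0.08 (0.02 to 0.13) and 0.38 (0.33 to 0.43). *Nqo1*, a quinone reductase, was at 8.27 CPM in Ctrl (7.35 to 9.26), 12.7 in LP1 (11.8 to 13.8) and 13.2 in LP4 (12.3 to 14.1), from 295, 669 and 811 UMIs. Its ratios were 0.63 (0.43 to 0.83) at 1 h and 0.68 (0.48 to 0.87) at 4 h, and LP1 and LP4 could not be told apart (0.05, -0.10 to 0.20). A *Nqo1* UMI was found in only 1.43%, 2.57% and 2.57% of cells thinned to 2000 UMIs.

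*Nfe2l2*, the Nrf2 gene itself, was the only 1 of the 10 that was lower after *Bb*LP. It measured 252 CPM in Ctrl (247 to 258), 209 in LP1 (205 to 213) and 104 in LP4 (101 to 106), and the log2 ratio was -0.27 (-0.31 to -0.23) at 1 h and -1.28 (-1.33 to -1.24) at 4 h. In thinned cells a *Nfe2l2* UMI was found in 37.7%, 33.9% and 17.6% of cells. Counted per cell without scaling, however, there were 1.48 *Nfe2l2* UMIs in a Ctrl cell, 2.17 in an LP1 cell and 1.36 in an LP4 cell, a ratio of 0.918 at 4 h. The CPM and the count per cell differ because the UMI total per cell was larger in LP4. Whether that total reflects more RNA or deeper sequencing cannot be told apart, so neither value is preferred here. The other 9 genes were between 2.82-fold (*Gclc*) and 18.2-fold (*Sod2*) higher per cell in LP4 than in Ctrl. These unscaled ratios include the larger UMI total of LP4 cells (median 11784 against 5133 in Ctrl), which raises the per-cell count of every gene. By CPM, *Gclc* was 1.26-fold and *Sod2* 8.14-fold higher. The nearest genes to *Nfe2l2* in both ratios were *Exoc3*, *Vwf*, *Ppp1r10*, *Neat1* and *Lrmda*.

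**Figure D2:**
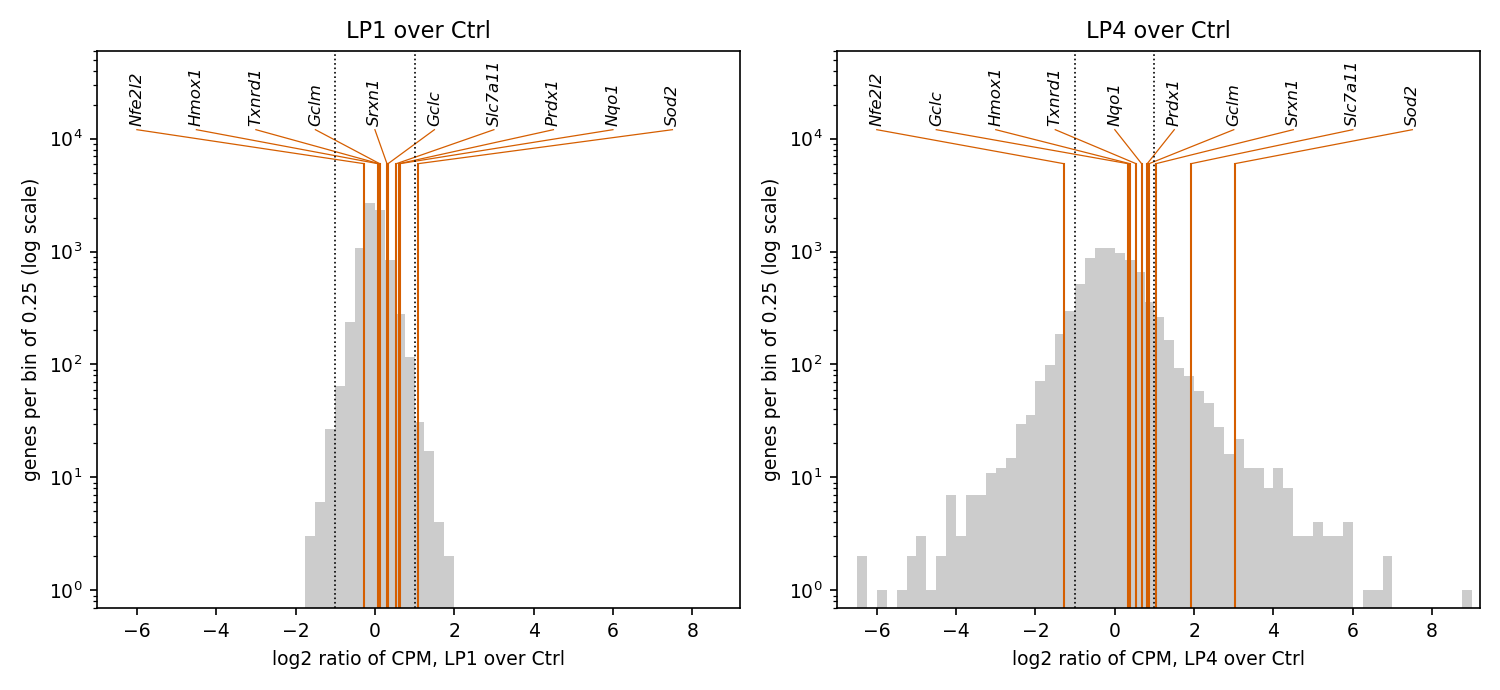
Number of genes (log scale) in bins of 0.25 of the log2 ratio of CPM, for all genes with at least 10 CPM in either library, in LP1 over Ctrl and LP4 over Ctrl. Orange lines mark the 10 genes and dotted lines the 2-fold limits, with *Sod2* at 1.09 and 3.03 and *Nfe2l2* at -0.27 and -1.28.

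Other scalings kept the direction of every ratio of the 10 genes whose interval excluded 0, but moved some across the 2-fold limit. With TMM and median-of-ratios scaling the median log2 ratio of all genes in LP4 over Ctrl shifted from -0.07 to 0.10 and 0.13 (a scaling adds 1 constant to every ratio, so the 10 genes shift by the same amount). The share of 2-fold differences that were higher went from 51.7% to 64.8% and 67.5% in LP4 over Ctrl, from 60.0% to 75.5% and 77.0% in LP1 over Ctrl, and from 53.7% to 61.4% and 64.0% in LP4 over LP1. *Gclm* passed 2-fold in LP4 over Ctrl under both scalings and *Prdx1* under median of ratios (1.02), and *Nfe2l2* was no longer 2-fold lower than in LP1 (-0.88 under median of ratios).

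The other antioxidant genes held some that were 2-fold higher or lower after 4 h and many that were not. Over all genes with at least 20 UMIs in the pair, 11.6% were at least 2-fold higher and 15.6% lower in LP4 over Ctrl, with a median of -0.15. Among 15 other glutathione enzymes, 3 were 2-fold higher and 0 lower, with a median of -0.12. *Mgst1*, a microsomal glutathione transferase, was at 58.7 CPM in Ctrl and 141 in LP4 (log2 ratio 1.27), and *Glrx*, glutaredoxin, at 105 and 240 (1.19). Also higher was *Mgst3* (named after its value was seen), at 12.0 and 42.4 CPM (1.82). Among 15 thioredoxin and peroxiredoxin genes, 3 were higher and 3 lower, with a median of -0.31. *Txn1*, thioredoxin itself, was at 343, 500 and 850 CPM in the same order (1.31 at 4 h). *Txnip*, the thioredoxin-binding inhibitor, was at 99.5, 84.7 and 202 CPM (1.02), and *Msra*, a methionine sulfoxide reductase, was lower, at 76.2, 73.4 and 35.2 CPM (-1.11). The remaining genes past 2-fold, named after their values were seen, were *Prdx3* (1.57), which was higher, and *Sesn1* (-1.58) and *Sesn2* (-1.38), which were lower.

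The other superoxide dismutases and catalase went in both directions. *Sod1*, the cytosolic dismutase, was lower in both treated libraries, at 91.9 CPM after 1 h and 105 after 4 h against 146 in Ctrl (-0.47 at 4 h). *Cat*, catalase, was at 43.9, 53.7 and 59.6 CPM (0.44). Of the 4 genes in this list 1, *Sod3*, was 2-fold higher at 4 h, from only 10 and 40 UMIs (named after its value was seen). Among 9 genes listed as NADPH-producing enzymes, 1 was 2-fold higher and 0 lower (median -0.29). The list also holds genes of the pentose phosphate pathway whose enzymes make no NADPH themselves. The 2 most abundant genes, *Taldo1* and *Pgls*, are of this kind and had ratios of -0.37 and -0.99. *G6pdx* and *Pgd*, whose enzymes make NADPH in that pathway, had ratios of -0.23 and 0.07 (named after their values were seen). The higher gene was *Me1* (named after its value was seen), at 3.95 CPM in Ctrl and 8.63 in LP4 (1.13).

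Among 10 genes of heme and iron handling, 0 were 2-fold higher and 1 was lower at 4 h, with a median of -0.25. The ferritin chains went apart: *Fth1*, the heavy chain, was at 46665 CPM in Ctrl and 59241 in LP4 (0.34), and *Ftl1*, the light chain, at 25180 and 20498 (-0.30). The 1 lower gene was *Slc40a1*, the iron exporter ferroportin (named after its value was seen), at 10.3 and 2.18 CPM (-2.24). Among 17 other genes linked to Nrf2, 3 were higher and 2 lower (median -0.22). The 3 higher genes were the metallothioneins *Mt2* (57.3 CPM in Ctrl, 37.4 in LP1, 538 in LP4, 3.23 at 4 h) and *Mt1* (482, 254 and 990 CPM, 1.04), which bind zinc and copper, and the efflux transporter *Abcc4* (22.5, 21.9 and 85.1 CPM, 1.92). The 2 lower genes (named after their values were seen) had low counts: *Osgin1*, at 9.30, 7.55 and 0.86 CPM in Ctrl, LP1 and LP4 (-3.43), and *Trim16*, at 6.64, 6.78 and 2.20 CPM (-1.59). Both metallothioneins were lower in LP1 than in Ctrl, with ratios of -0.62 for *Mt2* and -0.92 for *Mt1*.

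Among 16 regulators of Nrf2, 2 were 2-fold higher and 1 lower at 4 h, with a median of 0.12. *Bach1*, which represses *Hmox1* and other genes at the same elements, was at 103, 91.8 and 222 CPM (1.10). *Syvn1* (named after its value was seen) was at 3.50, 8.77 and 16.5 CPM (2.23). *Maff*, a small Maf partner, was at 36.1 CPM in Ctrl, higher in LP1 at 56.0 and lower in LP4 at 17.1 (-1.08 at 4 h). A further list held *Atf4* itself and targets of Atf4, the amino acid stress factor that is known to act on *Slc7a11*. Among its 11 measured genes, 1 was higher and 2 lower (median -0.20), and *Atf3* was at 427, 321 and 311 CPM (-0.46). The higher gene was *Ddit4*, at 2.55, 2.10 and 21.6 CPM (3.08). The lower ones were *Sesn2* (-1.38) and *Ddit3* (-1.33), and all of these were named after their values were seen. Among 12 NF-kB targets that were listed beside *Sod2*, 4 were 2-fold higher and 0 were 2-fold lower at 4 h, with a median of 0.38 (0.02 at 1 h). The 2-fold higher genes were *Acod1*, the itaconate-making enzyme (387 CPM in Ctrl, 2182 in LP4, 2.49), *Ptgs2* (2.38), *Bcl2a1d* (2.05) and *Bcl2a1b* (1.60), of which the last 2 are near-identical copies whose reads may be split uncertainly. The others (named after their values were seen) stayed under 2-fold. *Traf1* (0.80), *Nfkb2* (0.56), *Tnfaip3* (0.20) and *Birc3* (0.19) were higher. *Nfkbiz* (-0.66), *Relb* (-0.49), *Nfkbia* (-0.21) and *Nfkb1* (-0.21) were lower.

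**Figure D3:**
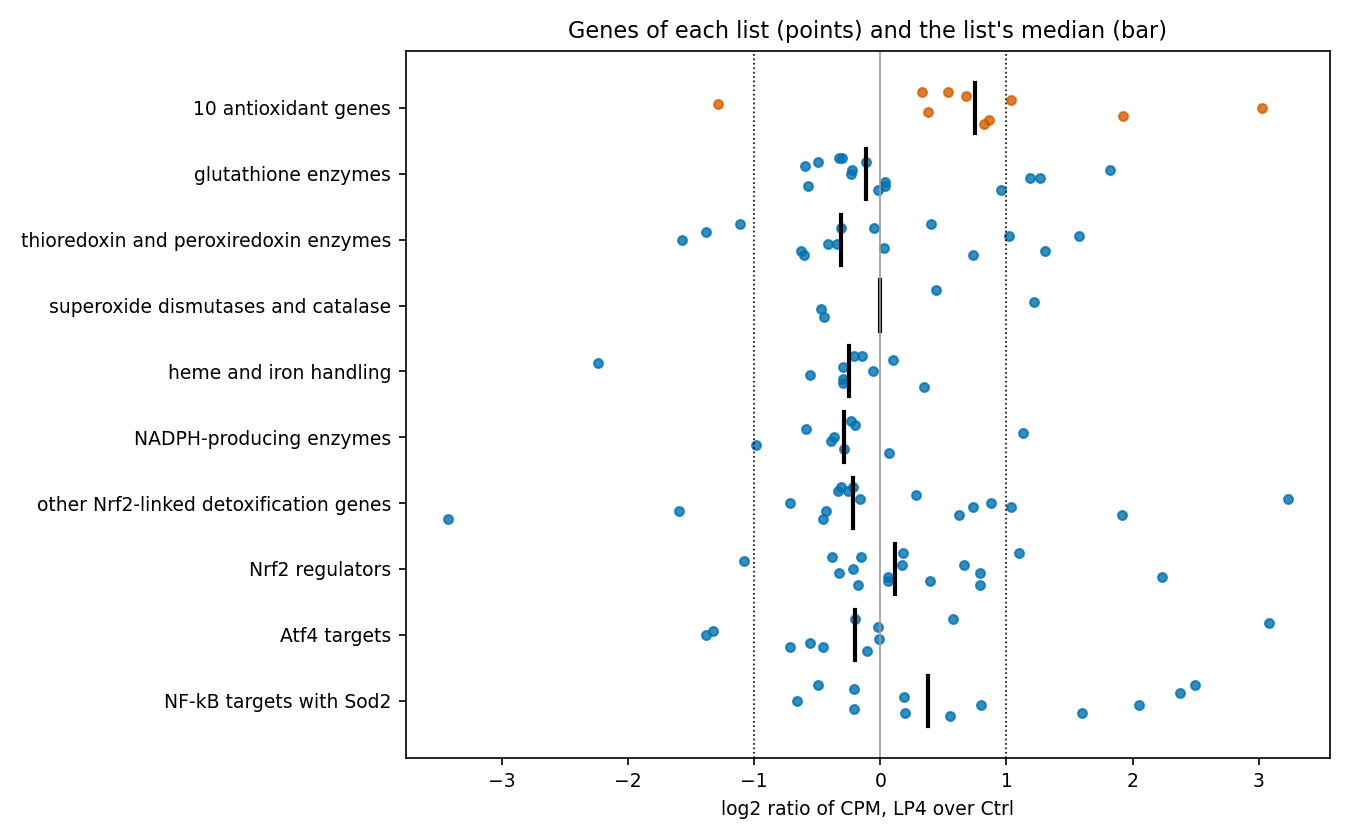
Log2 ratio of CPM in LP4 over Ctrl for each gene (point) of the 10 antioxidant genes and of 9 related lists, for genes with at least 20 UMIs in the pair, with the median of the list as a bar and the 2-fold limits dotted. The median of the 10 genes is 0.75, and those of the other lists lie between -0.31 and 0.38. The genes and lists were chosen with earlier results of these data known.

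The differences were also followed in cell subsets. Clustering without the 10 genes, the listed genes and genes that differed at least 1.5-fold between libraries gave clusters A to H, with A at 27.0% to 30.9% and E at 4.82% to 7.82% of a library. Clusters A (4660 cells, led by *Egr3*, *Nr4a3* and *Apoe*), B (3928, *Ccnd1*, *Psd3*) and C (3586, *Fabp4*, *Hal*) were macrophage-like. Cluster D (2287, *Mgll*, *Eef1a2*, *Mmp9*, *Ctsk*) was left unnamed, E (1001) was cycling-like, F (198) dendritic cell-like, G (84) neutrophil-like and H (62) stromal-like. Ratios were computed in A to F, which had at least 50 cells in every library. In clusters A to C alone, without clusters D to H, 3 of the 10 genes were again 2-fold higher and 1 lower at 4 h. Of all 8019 genes tested, 883 were 2-fold higher and 915 lower in those cells.

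In LP4 over Ctrl, *Sod2* had ratios above 0 in all 6 clusters, from 2.86 (D) to 3.21 (A), and *Nfe2l2* ratios below 0, from -1.48 (F) to -1.19 (D). *Slc7a11* ranged from 1.16 (F) to 2.24 (A), *Srxn1* from 0.76 (D) to 1.53 (A), and *Gclm* from 0.47 (F) to 1.18 (A). *Txnrd1* and *Prdx1* were also higher in all 6. *Gclc* differed by cluster: its ratio was 1.29 in A and 0.59 in E, but between -0.09 and 0.10 in B, C, D and F. *Hmox1* ranged from -1.10 in F, where it went from 97.6 to 45.4 CPM, to 0.69 in E, and was 0.06 in C and 0.05 in D. Cluster A had the lowest Ctrl level of 8 of the 10 genes, among them *Prdx1* (488 CPM, against 2779 in D) and *Txnrd1* (518, against 798 to 840 in the others). At 4 h *Txnrd1* in A was at 1212 CPM, among 1011 to 1251 in the other 5 clusters. Finer clustering gave a cluster with 26.9% of Ctrl and 2.25% of LP4 cells and another with 1.96% and 26.4%, each of which shared leading genes with A. How the cells of A fell into these was not counted, but A in Ctrl and A in LP4 may not be the same cells. In these finer clusters, in the same order, the ratios were 1.02 and 0.66 for *Srxn1*, 1.21 and 0.56 for *Txnrd1*, and 1.40 and 0.96 for *Gclm*. For *Gclc* they were 1.30 and 0.26 (-0.14 to 0.68), and for *Sod2* 3.23 and 2.77. The values given for A may thus depend on the clustering.

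**Figure D4:**
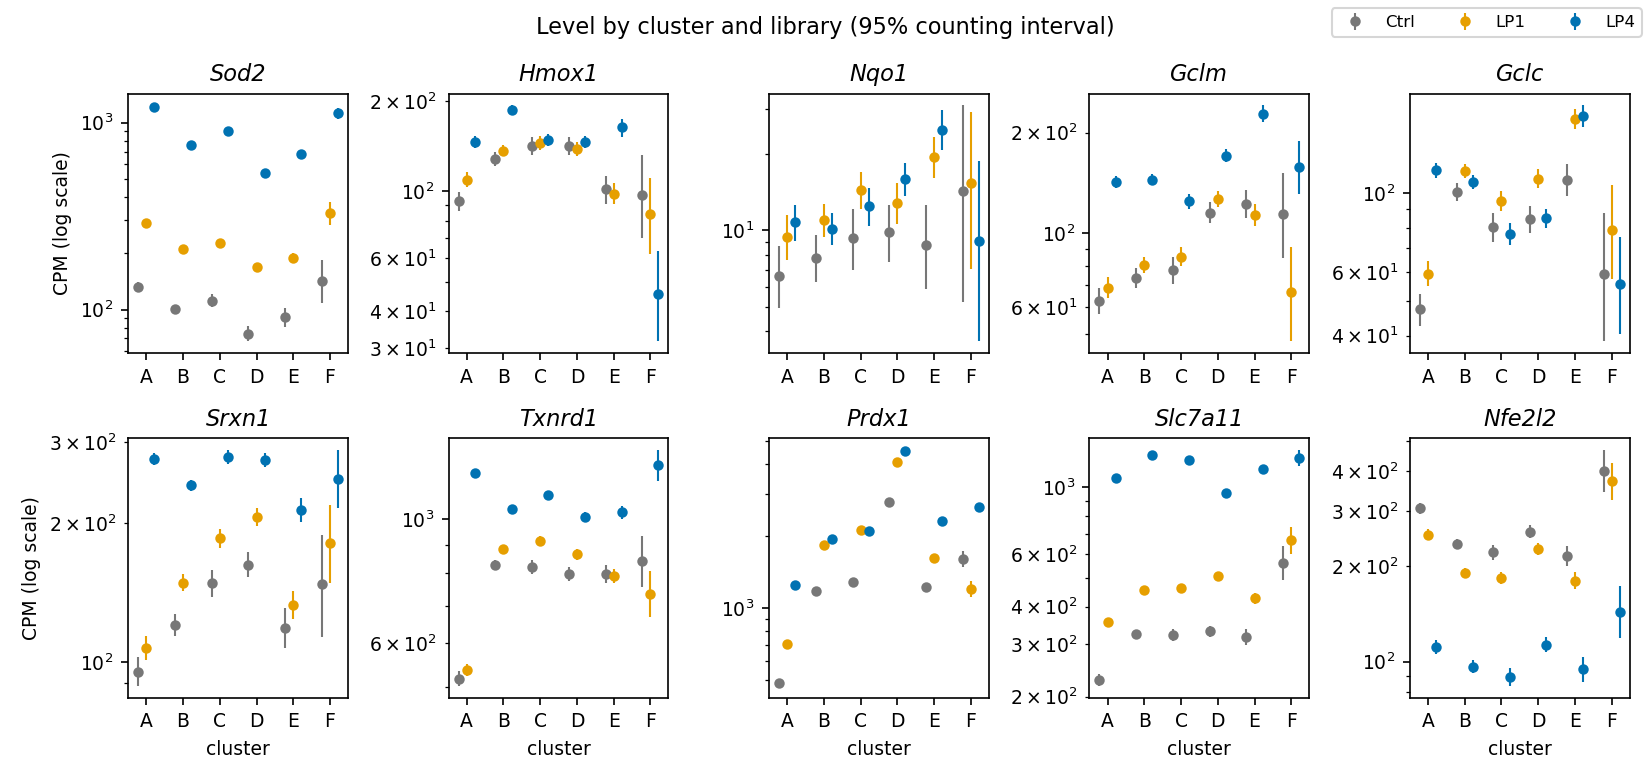
CPM (log scale) of the 10 genes in clusters A to F of the Ctrl, LP1 and LP4 libraries, with 95% counting intervals. *Sod2* and *Slc7a11* are above Ctrl and *Nfe2l2* below Ctrl in LP4 in all 6 clusters, and *Gclc* stands above Ctrl mainly in A and E.

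Of the 84 neutrophil-like cells, the 28 in LP4 were looked at for free RNA. Thinned to 2000 UMIs, they held no *Hmox1* or *Nqo1* UMI. That allows a share of up to 12.3% by the exact interval, against 20.2% of all LP4 cells with a *Hmox1* UMI. At 4000 UMIs 1 of 24 such cells held a *Hmox1* UMI, and without thinning 2 of 28 did. These genes were taken because they had no UMI at 2000 UMIs, so this is a description and not a test. Median depths before thinning were 9262 UMIs in these cells and 11838 in all LP4 cells. The *Nqo1* share of all cells (2.57%) lies under that limit and was not separable from free RNA. *Prdx1* was found in 14.3% of them against 86.4% of all LP4 cells. *Sod2* was found in 92.9% and *Slc7a11* in 67.9% of them, against 78.9% and 74.5% of all LP4 cells. The level of *Nfe2l2* in neutrophil-like cells was 172 CPM in Ctrl and 267 in LP4, the other direction from clusters A to F, over 32 and 28 cells. When thinned to 2000 UMIs, 23.8% of 21 Ctrl cells (8.22% to 47.2%) and 53.6% of 28 LP4 cells (33.9% to 72.5%) held a *Nfe2l2* UMI. These intervals overlap, so no direction is read from so few cells.

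*Hmox1* had a different shape from *Sod2*. Its share of cells with a UMI did not rise with its CPM: at 4000 UMIs per cell the share was 35.8%, 36.1% and 32.7% (Ctrl, LP1, LP4). The interval of LP4 (31.4% to 34.1%) lay below that of Ctrl (34.4% to 37.3%). That depth left out 1753 Ctrl cells against 133 in each treated library. At 2000 UMIs the shares were 19.6%, 21.2% and 20.2%, with overlapping intervals in Ctrl and LP4, so no order is read from them. Its variance over its mean was 1.29, 1.39 and 3.34, and the highest cell held 6, 13 and 28 UMIs. Cells with at least 5 *Hmox1* UMIs, a limit set after the values were seen, made up 0.278% of Ctrl cells (12 of 4318, interval 0.144% to 0.485%), 0.385% of LP1 cells (19 of 4932, 0.232% to 0.601%) and 1.79% of LP4 cells (81 of 4537, 1.42% to 2.21%). In LP4 these 81 cells held 24.3% of the *Hmox1* UMIs, and 26 of them lay at the limit with 49 cells just under it. Outside them the level was 121, 121 and 115 CPM. The limit was set on *Hmox1* itself and took out 2.89%, 4.73% and 24.3% of its UMIs. The level outside is therefore lowered most in LP4 by that choice and is no separate result.

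The 81 LP4 cells also differed from the other 4456 in genes that had no part in choosing them. *Gclc* was at 611 CPM (529 to 702) against 94.2 (89.7 to 98.8), *Gclm* at 435 (366 to 513) against 143 (138 to 149), and *Prdx1* at 4188 (3968 to 4417) against 2062 (2041 to 2083). *Srxn1* was at 383 CPM against 252 and *Txnrd1* at 1361 against 1090. *Sod2* was nearly equal, at 923 CPM (821 to 1034) against 920 (906 to 934). Of the 81 cells, 14 also held at least 5 *Gclc* UMIs, which is 17.3% of them and 24.6% of the 57 *Gclc*-high cells, which were 1.26% of all LP4 cells. In Ctrl 3 of 12 *Hmox1*-high cells held at least 5 *Gclc* UMIs and in LP1 0 of 19. At least 1 *Gclc* UMI was found in 54.3% of the *Hmox1*-high cells in LP4 against 23.5% of the other cells, and the shares were 50% against 20.7% in Ctrl and 47.4% against 24.8% in LP1. The 81 cells came from clusters A (17), B (33), C (16), D (10), E (3) and H (2), and their median depth before thinning (13113 UMIs) and mitochondrial share (3.23%) were near those of the other cells (11964 UMIs and 3.18%).

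**Figure D5:**
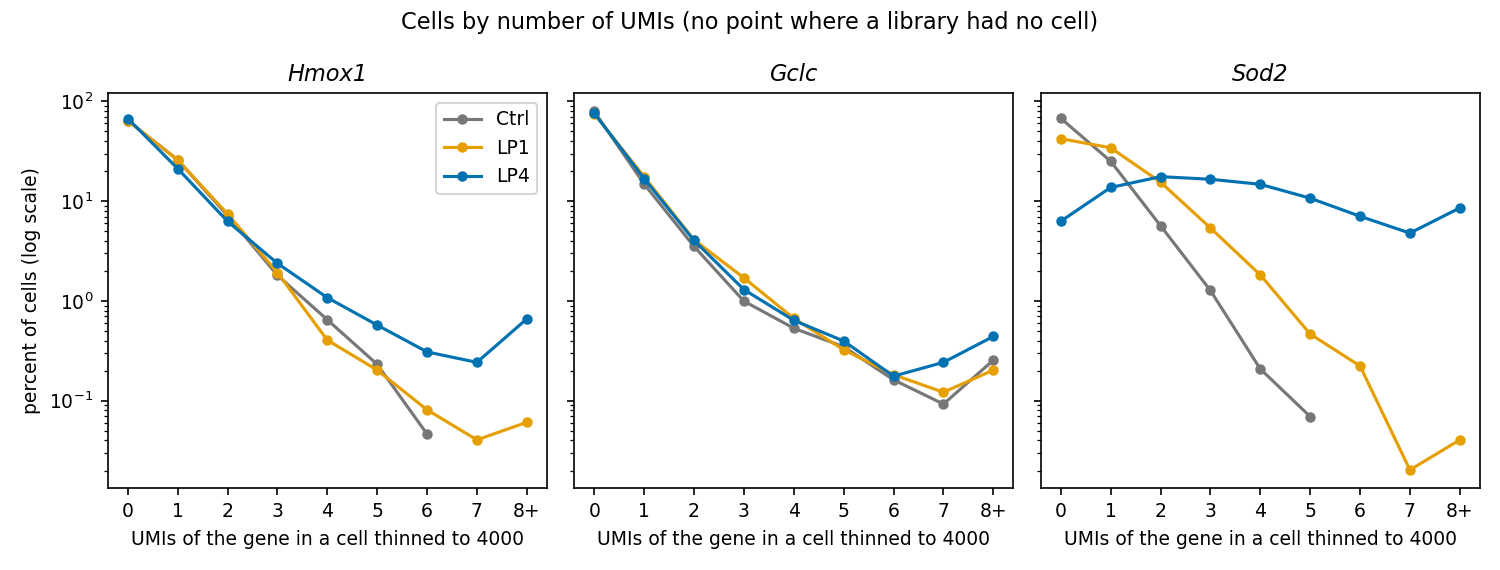
Percent of cells (log scale) by the number of UMIs of *Hmox1*, *Gclc* and *Sod2* in cells thinned to 4000 UMIs, for Ctrl, LP1 and LP4, with 8 or more pooled. *Sod2* has 67.7% of cells at 0 in Ctrl and 6.28% in LP4, while *Hmox1* keeps about the same share of cells at 0 and gains a tail of cells with 5 or more UMIs (1.79% in LP4 against 0.278% in Ctrl).

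Over single cells the 10 genes varied together only weakly. Of the 45 pairs, 6, 6 and 16 had a Spearman correlation of at least 0.1 in Ctrl, LP1 and LP4, over 4318, 4932 and 4537 cells of 1 library each that were thinned to 4000 UMIs. With thinning to 2000 UMIs the counts were 5, 4 and 5, so the higher count in LP4 was not seen at that depth. The highest in LP4 were *Gclm* with *Prdx1* (0.23), *Srxn1* with *Prdx1* (0.21) and *Txnrd1* with *Slc7a11* (0.18). The lowest was *Sod2* with *Prdx1* at -0.23, which was -0.05 in Ctrl. In LP4 cells *Sod2* varied most with *Cd14*, a co-receptor for lipoproteins (0.31), then with *Sdc4*, *Lyz2*, *Ms4a4a* and *Cebpb*, and *Hmox1* with *Ftl1* (0.16), *Prdx1*, *Cd36*, *Gclm* and *Lpl*. *Slc7a11* varied most with *Pid1* (0.20), *Txnrd1*, *Ptgs2*, *Acod1* and *Cxcl1*, and *Srxn1* with *Prdx1* (0.21), *Rhob*, *Ftl1*, *Txnrd1* and *Cxcl3*. The highest positive correlation of *Nfe2l2* with any of 3074 genes was 0.08. For these rankings only the highest positive values were taken, and negative ones were not searched. Such values in sparse counts are descriptions of the library and share its depth.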

How the data were processed

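The members and gene lists were chosen with earlier results of these data known. Per the labels, the authors made 10x Genomics 3′ libraries and processed them with Cell Ranger 7.1.0 on mm10 (the methods text names an earlier release). The deposited counts are unnormalized UMI counts per gene and called barcode. UMIs of kept cells were summed per library and expressed as CPM. Intervals were exact Poisson for levels, exact conditional binomial for ratios and Clopper-Pearson for shares. No p-value was computed. "Called" meant at least 2-fold among genes with at least 10 CPM in 1 of the 2 libraries. Cells were thinned to 2000 or 4000 UMIs for shares and correlations, which left out 122, 13 and 45 or 1753, 133 and 133 cells. Clusters were made with Scanpy 1.11.5 (Leiden resolution 0.5) after centring within library. The doublet caller marked at most 0.0214% of cells and was taken as not working, so no doublet was removed. The ratio code was tested on simulated data. Named genes were all 10 members; for other lists, genes past 2-fold at 4 h with at least 50 CPM, at most 4 a list, or else the 2 most abundant; and the 5 nearest genes by ratio and by correlation. Gene spans came from GENCODE vM21.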

Additional observations from a re-analysis of the deposited data

How the results depend on the processing

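The counts of genes past 2-fold were recomputed under 10 alternatives: other cell filters, macrophage-like clusters alone, cells with the highest 5% of doublet scores or with shared barcodes removed, a mean of cell shares, and other scalings. The doublet scores came from the caller that was taken as not working, so their removal cannot show whether doublets matter. The counts stayed within 1.5 times the reported count except as follows. Under median of ratios 5 genes were 2-fold higher in LP4 over Ctrl, beside 1127 of all 8019 genes tested. Under TMM and median of ratios 0 were 2-fold lower in LP4 over LP1, beside 497 and 465 of all 7956 genes tested. With a limit of 1.5-fold the counts of higher genes were 3 in LP1 over Ctrl, 6 in LP4 over Ctrl and 4 in LP4 over LP1. The share of all genes past 1.5-fold was not computed, so these counts are not read as a result about the members. No log2 ratio of a member whose interval excluded 0 changed sign in 300 recomputed values, of which 86 left the counting interval. The share of cells was lower in LP4 than Ctrl for 1 gene, and for 2 (*Nfe2l2* and *Hmox1*) when thinned to 4000 UMIs. With thinning to 2000 UMIs 5, 4 and 5 pairs in Ctrl, LP1 and LP4 correlated at 0.1 or more. Without a filter, 4.28% of genes were 2-fold higher and 8.65% lower in LP1 over Ctrl, and 11.5% and 19.5% in LP4 over Ctrl. With lists limited to genes of at least 10 CPM, the glutathione median in LP4 over Ctrl was 0.01 and the superoxide and catalase median -0.45. No paired analysis was possible because each condition was 1 library. Depth limits *Nqo1* most, and 1 library per condition limits every comparison.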
